A study of Mus musculus with 16 samples.

Results

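The annulus fibrosus (AF), the fibrous ring of the intervertebral disc, was compared between control mice and mice with an inducible deletion of Sox9 in Acan-expressing cells. The comparison uses the 8 AF arrays of a series of 16, 4 from Sox9 conditional knockout mice (cKO) and 4 from controls (CTR). The other 8 arrays hold the nucleus pulposus (NP), the gel-like centre of the disc, of the same 8 animals. All mice were female and 3 to 4 months old. CTR mice were Sox9fl/fl, with loxP sites in both copies of the gene, and no Cre is named for them. The cKO mice were AcanCreERT2Sox9fl/fl, in which a tamoxifen-inducible Cre is under the control of Acan, which encodes aggrecan and is active in cartilage-like cells. Tamoxifen is named for the cKO mice only, on 2 consecutive days, so drug and genotype cannot be told apart. Tissue was taken on day 5 after the first injection, and lumbar and tail discs of an animal were pooled, so each array is 1 mouse. All 22206 probe sets that are not controls were tested, first in a plain fit of cKO against CTR and then with the marrow and the muscle signal of each array added as covariates. A gene is said to have risen or fallen when its adjusted p (limma, Benjamini-Hochberg) was under 0.05.

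Sox9 is the transcription factor that starts and maintains the cartilage gene programme, and with Sox5 and Sox6 it drives the genes of collagen II, collagen IX, collagen XI, aggrecan and link protein. The AF is built of collagen I lamellae in its outer part and holds more cartilage-like cells, rich in aggrecan and collagen II, towards the NP. Acan-driven Cre acts in cells that express aggrecan, which need not be every AF cell. In whole tissue, fewer cells of a type and less RNA per cell cannot be told apart.

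The deposited values are log2 signals, and array medians in the AF lay between 6.78 and 6.89. Negative control probe sets had medians of 6.14 to 6.57 on the AF arrays, so a signal near these values is at background. AF arrays of 1 group correlated with r of 0.963 to 0.98 across probe sets, and arrays of different groups with r of 0.949 to 0.98. Of 8 measured AF and tendon markers, 7 were higher in every AF CTR array than in every NP CTR array, among them the collagen I gene Col1a2 (17.65 to 18.44 against 7.21 to 9.06) and the tendon factor Mkx (7.99 to 9.03 against 5.82 to 6.02). The exception, the keratan sulfate proteoglycan gene Kera, lay below background in both tissues. Of 8 measured NP markers, Krt8, Krt18, Krt19 and Cd24a were lower in every AF CTR array than in every NP CTR array. Noto and Foxa2 went the other way and were higher in every AF CTR array than in every NP CTR array (7.69 to 8.23 against 6.73 to 7.49, and 6.23 to 6.71 against 5.21 to 5.69). Foxa2 lay near background in AF CTR and below it in NP CTR. Shh and Car3 overlapped, and Car3 (19.83 to 19.93 in AF CTR) lay at the highest values of the series, where a difference could hardly be seen. The 4 lower markers were not at background in the AF, where Krt19, a keratin of notochordal cells, read 15.35 to 16.42 in CTR.

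Gjc3, Sox9 and Meltf are the genes that fell under both fits. The 250 bases before the annotated start of Gjc3 and Meltf are printed because these are the genes other than Sox9 that passed with and without the covariates. The sequences are from RefSeq on GRCm38.p6, at chr5:137963099-137963348 on the minus strand for Gjc3 and at chr16:31878560-31878809 on the plus strand for Meltf, each written 5′ to 3′.
Gjc3: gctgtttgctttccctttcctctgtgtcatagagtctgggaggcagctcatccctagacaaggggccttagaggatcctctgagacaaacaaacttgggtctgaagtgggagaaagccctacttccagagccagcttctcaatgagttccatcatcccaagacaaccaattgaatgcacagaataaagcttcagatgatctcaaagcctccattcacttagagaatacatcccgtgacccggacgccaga
Meltf: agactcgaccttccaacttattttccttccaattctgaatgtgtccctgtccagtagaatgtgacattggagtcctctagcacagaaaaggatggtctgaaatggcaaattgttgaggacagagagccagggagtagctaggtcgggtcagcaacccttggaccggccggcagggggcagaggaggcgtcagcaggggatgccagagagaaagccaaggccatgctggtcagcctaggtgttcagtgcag
The motif searched was ACAATG on either strand (CATTGT when read from the other strand), a core bound by factors of the Sox family, and no letters are in capitals because neither stretch holds it. It was counted over windows of 300 bases, 250 before and 50 after the start. Of 32851 such windows 12.6% hold the motif, and of 27025 genes with a window 14.3% do. Windows were found for 5 of the 8 genes that fell under either fit (Gjc3, Kcnip3, Meltf, Plekhb1 and Scin), and 0 of the 5 hold it. In the cartilage matrix list, 3 of 28 genes with a window hold it, namely Epyc, Sox5 and Sox6. No match says only that these letters are not in this window.

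Sox9 itself read 17.25, 17.45, 16.59 and 16.39 in AF CTR replicates 1 to 4. In AF cKO replicates 1 to 4 it read 12.10, 11.43, 12.99 and 12.44. The groups did not overlap, and every cKO array stayed well above background. Sox9 fell by 4.68 (SE 0.34) on the log2 scale, or 25.7-fold, in the plain fit (adjusted p = 0.000186), and by 4.52 (SE 0.58) with the covariates (adjusted p = 0.0382). The plain call held without each array in turn, with adjusted p of at most 0.00248. With the covariates it was lost without AF CTR replicate 1 and without any 1 of the cKO arrays, with changes between -5.14 and -4.04 over the 8 fits that leave out 1 array. The exons that the Sox9 probes read are not given in the sources used here.

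Gjc3, a gap junction connexin known from myelinating glia, had the largest change among genes that passed. It read 16.82, 16.11, 14.86 and 15.64 in AF CTR replicates 1 to 4, and 9.58, 9.55, 9.87 and 9.0 in AF cKO replicates 1 to 4. The lowest CTR array was far above the highest cKO array. Gjc3 fell by 6.36 (SE 0.36), or 81.9-fold, in the plain fit (adjusted p = 2.54e-05) and by 7.14 (SE 0.51) with the covariates (adjusted p = 0.000357). Without AF CTR replicate 1 the covariate fit gave an adjusted p of 0.0736.

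Meltf encodes melanotransferrin, an iron-binding protein held at the cell surface. It read 13.97, 14.17, 13.77 and 13.96 in AF CTR replicates 1 to 4, and 10.03, 11.89, 10.32 and 9.85 in AF cKO replicates 1 to 4. The CTR arrays lay close together, and cKO replicate 2 was the highest of its group. Meltf fell by 3.45 (SE 0.38), or 10.9-fold, in the plain fit (adjusted p = 0.00992) and by 4.65 (SE 0.56) with the covariates (adjusted p = 0.0272). The plain call was lost without AF CTR replicate 2, AF CTR replicate 4 or AF cKO replicate 1, with adjusted p of at most 0.0779, while the change stayed between -3.90 and -3.22. The covariate call was lost without AF CTR replicate 1 or any 1 cKO array, with adjusted p of at most 0.381.

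**Figure D1:**
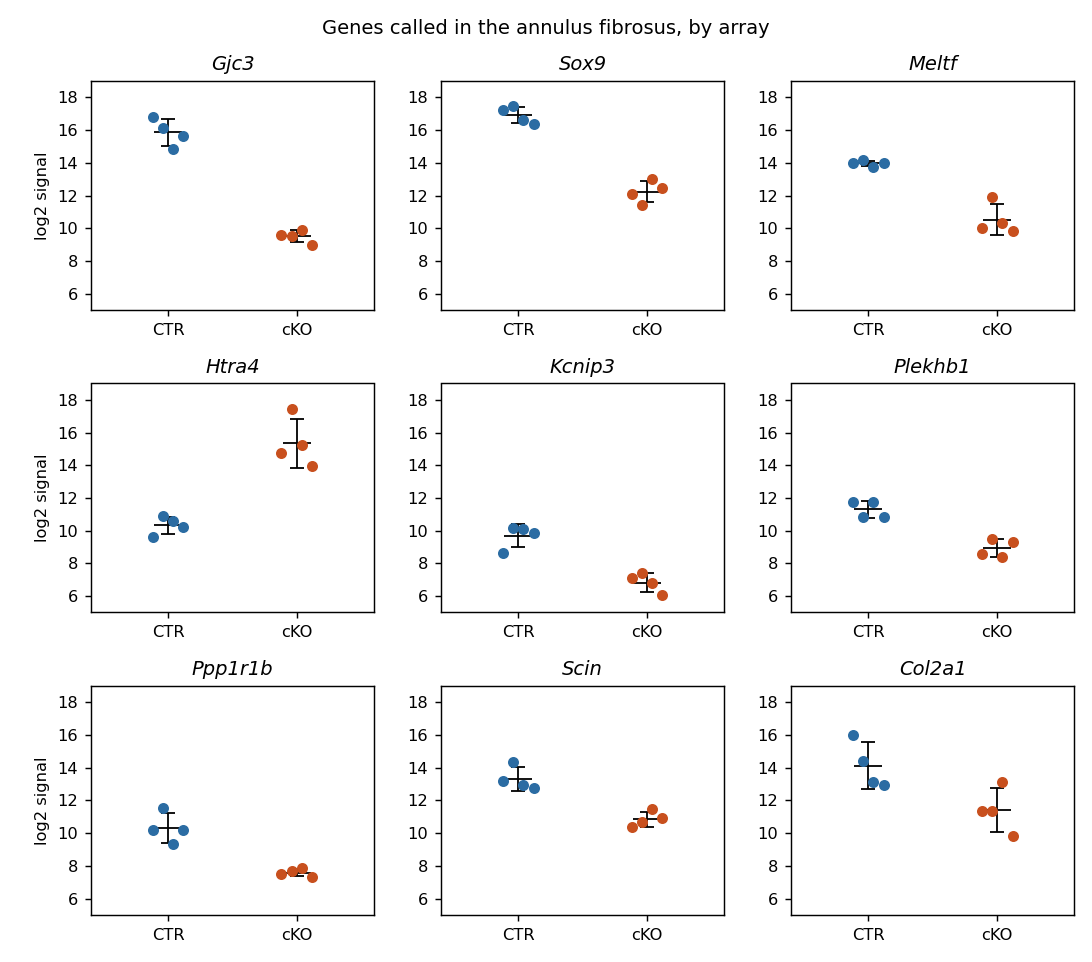
Log2 signal of the 9 genes that passed in at least 1 fit, by group; points are arrays, horizontal lines the mean and bars the SD of 4 arrays. The groups do not overlap for 8 of the genes, while for Col2a1 the cKO array at 13.11 lies above the lowest CTR array at 12.96.

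In the plain fit 8 of 22206 probe sets passed, which is 0.036%. Of these 1 was higher (0.0045%) and 7 were lower in cKO (0.0315%). Across all probe sets 961, or 4.33%, had AF groups that did not overlap, 398 higher (1.79%) and 563 lower in cKO (2.54%). At an unadjusted p under 0.05 there were 2106 (9.48%), 945 higher and 1161 lower, or 4.26% and 5.23% of those tested. The labels name an unadjusted p under 0.05 with a fold of 1.75, which 757 probe sets met (3.41%), 411 higher (1.85%) and 346 lower (1.56%). By sign alone, 46.4% of all probe sets were higher in cKO in the plain fit and 50.8% with the covariates. These shares are the background for the counts of list members given here.

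Htra4, a secreted serine protease of the HtrA family, was the gene that rose. It read 9.64, 10.88, 10.57 and 10.20 in AF CTR replicates 1 to 4, and 14.72, 17.45, 15.22 and 13.94 in AF cKO replicates 1 to 4. All cKO arrays were above all CTR arrays, and cKO replicate 2 was the highest. Htra4 rose by 5.01 (SE 0.60), or 32.2-fold, in the plain fit (adjusted p = 0.0168). With the covariates the difference was 3.58 (SE 0.96), which did not pass (adjusted p = 0.97). Of the 8 plain fits that leave out 1 array, 4 kept the call, and it was lost without AF CTR replicate 2 or 4 or AF cKO replicate 1 or 3 (adjusted p of at most 0.103). With the covariates and without AF CTR replicate 1 the difference was 0.48 (SE 0.83). In the NP the signals were 4.67 to 5.70 in CTR and 5.82, 5.61, 7.62 and 14.6 in cKO replicates 1 to 4, so the NP difference of 3.24 (SE 1.30) came mostly from replicate 4, and the other NP arrays except cKO replicate 3 were below background.

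The other genes that fell in the plain fit were Kcnip3, Plekhb1, Ppp1r1b and Scin. Kcnip3, a calcium-binding protein that modulates potassium channels, read 8.65 to 10.17 in CTR and 6.04 to 7.39 in cKO, at or near background in the latter. It fell by 2.88 (SE 0.37, adjusted p = 0.0303). Plekhb1, a membrane protein with a pleckstrin homology domain, fell by 2.37 (SE 0.33, adjusted p = 0.0417), from 10.82 to 11.77 in CTR to 8.37 to 9.48 in cKO. Ppp1r1b, an inhibitor of protein phosphatase 1 known as DARPP-32 from neurons, fell by 2.71 (SE 0.38, adjusted p = 0.0417), from 9.32 to 11.51 in CTR to 7.31 to 7.88 in cKO. Scin encodes scinderin, which severs actin filaments. It fell by 2.45 (SE 0.35, adjusted p = 0.0499), from 12.75 to 14.35 in CTR to 10.37 to 11.45 in cKO.

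With the covariates these 4 genes had differences of -2.48 for Kcnip3, -3.29 for Plekhb1, -2.68 for Ppp1r1b and -2.50 for Scin. None of the 4 passed in that fit, where their adjusted p ran from 0.0527 for Plekhb1 to 1 for Kcnip3. The plain calls of these 4 genes were also the least stable over the 8 fits that leave out 1 array. Of these fits, 2 kept Kcnip3 (lost without any array other than AF CTR replicate 1 and AF cKO replicate 2), 1 kept Plekhb1 (that without AF cKO replicate 2), 2 kept Ppp1r1b (those without AF CTR replicate 2 or 3) and 0 kept Scin. The adjusted p was at most 0.215 in them, and no difference came below 2.10 in size.

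Marrow and muscle genes differed between the AF arrays, and the covariates were built from them. The marrow signal is the mean log2 signal of Mpo, Elane, Camp and Ltf, proteins of neutrophil granules. Values of 9.29, 5.73, 5.49 and 5.56 were found for AF CTR replicates 1 to 4, and of 9.24, 9.37, 11.89 and 6.75 for AF cKO replicates 1 to 4. Only 1 CTR array, replicate 1, had a high marrow signal, against 3 of the 4 cKO arrays.

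The muscle signal, the mean of Ckm, Acta1, Myh2 and Tnnt3 of skeletal muscle fibres, was 7.30, 7.42, 8.03 and 6.71 in AF CTR replicates 1 to 4. It was 7.89, 12.26, 7.19 and 11.15 in AF cKO replicates 1 to 4, high in replicates 2 and 4. The group means were 6.51 ± 1.85 (SD, n = 4) in CTR and 9.31 ± 2.10 (SD, n = 4) in cKO for marrow. For muscle they were 7.37 ± 0.54 (SD, n = 4) in CTR and 9.62 ± 2.47 (SD, n = 4) in cKO. In NP arrays the marrow signal stayed between 5.39 and 6.37 and the muscle signal between 5.43 and 6.13. On each NP array both lay below the negative control median of that array.

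**Figure D2:**
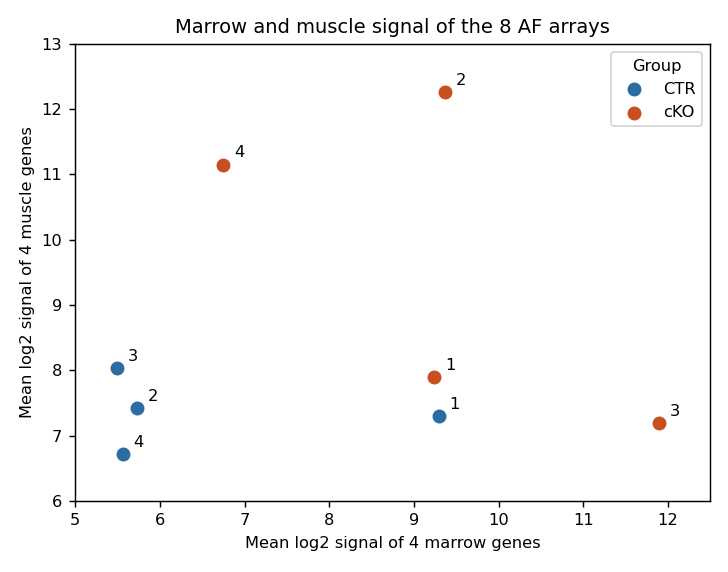
Mean log2 signal of 4 muscle genes against that of 4 marrow genes for the 8 AF arrays; numbers are replicates. CTR replicate 1 sits beside cKO replicate 1 at a marrow signal near 9.29, the other CTR arrays are low in both, and cKO replicates 2 and 4 are high in muscle.

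Both signals were higher in cKO, and adding them widened the error of the genotype term. The SE that the design alone gives was 1.82 times as large, the residual degrees of freedom went from 6 to 4, and the median SE of a change went from 0.25 to 0.43. The median residual SD was 0.35 in the plain fit and 0.33 with the covariates. Within CTR the marrow signal varied through replicate 1 alone. The other CTR arrays lay between 5.49 and 5.73, below the medians of the negative controls on them (6.35 to 6.57). Differences in marrow signal among those arrays therefore cannot be told from background. Within cKO the marrow signal ran from 6.75 to 11.89.

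The marrow signal had a slope that passed the adjusted threshold in 181 of 22198 probe sets (0.815%), 166 of them positive. The muscle signal had such a slope in 8 probe sets (0.036%), all positive, and 7 of these were in the muscle list, such as the light chain gene Myl1 (slope 1.14 log2 units per unit of muscle signal, adjusted p = 0.000297). Among the 181 were 7 of 23 macrophage genes, 5 of 15 osteoclast genes and 4 of 28 cell cycle genes. They also held the proliferation gene Mki67 (slope 0.75, SE 0.08, adjusted p = 0.00327) and 3 cartilage genes, Col2a1 (0.66, SE 0.10, adjusted p = 0.0122), Col11a1 (0.55, SE 0.08, adjusted p = 0.00946) and Epyc (0.72, SE 0.11, adjusted p = 0.0122). Of the probe sets with a slope that passed, 0 had been called for genotype in the plain fit.

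With both covariates 4 probe sets passed, or 0.018% of 22198, and all 4 were lower in cKO. They were Gjc3, Sox9, Meltf and Col2a1. Thus 3 were shared with the plain fit, 5 of its 8 were not called, and 1 was called with the covariates alone. At an unadjusted p under 0.05 the covariate fit counted 863 (3.89%), 393 higher (1.77%) and 470 lower (2.12%). The thresholds that the labels name were met by 860 (3.87%), 392 higher (1.77%) and 468 lower (2.11%). In this fit 0 probe sets passed when AF CTR replicate 1 was left out, and 857 had an unadjusted p under 0.05 there.

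Col2a1 encodes collagen II, the main fibril collagen of cartilage. It read 16.01, 14.43, 13.14 and 12.96 in AF CTR replicates 1 to 4, and 11.36, 11.33, 13.11 and 9.83 in AF cKO replicates 1 to 4. The groups overlapped, since cKO replicate 3, the array highest in marrow signal, read about as high as CTR replicates 3 and 4. The plain difference was -2.72 (SE 0.72), which did not pass (adjusted p = 0.434). With the covariates Col2a1 fell by 4.59 (SE 0.53, adjusted p = 0.0272), and with the marrow signal alone by 4.58 (SE 0.36, adjusted p = 0.000355). With the muscle signal alone the difference was -1.94 (SE 0.83, adjusted p = 0.898), which did not pass. Without CTR replicate 1 the covariate value was -4.50 (SE 0.84, adjusted p = 1), and the call was also lost without any 1 of the cKO arrays, while the value stayed between -4.77 and -4.49.

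**Figure D3:**
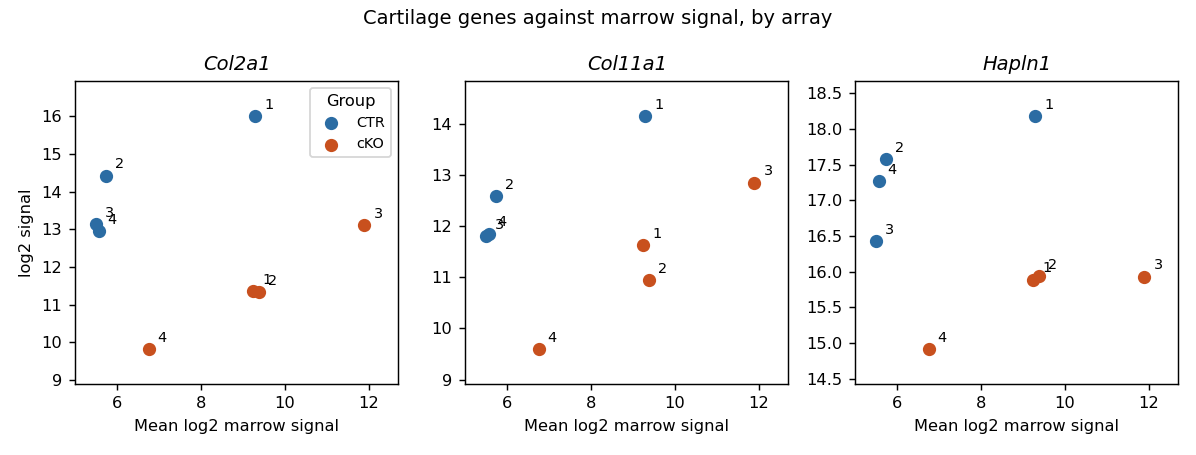
Log2 signal of Col2a1 (collagen II), Col11a1 (collagen XI) and Hapln1 (link protein) against the mean log2 marrow signal of the array; numbers are replicates. In Col2a1 and Col11a1 the array highest in marrow within each group, CTR replicate 1 and cKO replicate 3, is also the highest in the gene.

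The cartilage matrix list holds 34 measured genes, 31 of them with a mean above the negative controls. In the plain fit 27 of the 34 were lower in cKO, with a median difference of -1.13 against -0.03 over all probe sets. None of the 34 passed the adjusted threshold, and 19 were lower at an unadjusted p under 0.05. In 11 of them the groups did not overlap, all lower in cKO, where 2.54% of all probe sets had such a pattern. With the covariates 31 of the 34 were lower, the median was -2.04 against 0.01 over all probe sets, 1 passed and 23 were lower at an unadjusted p under 0.05. The difference kept its sign and grew in 24 of 34 genes, against 37.3% of all probe sets. Without AF CTR replicate 1 the medians were -0.81 in the plain fit and -0.92 with the covariates, and over the other fits that leave out 1 array the covariate median lay between -2.27 and -1.77.

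Among the fibril collagens and their partners, the minor fibril collagen gene Col11a1 read 14.15, 12.58, 11.81 and 11.85 in AF CTR replicates 1 to 4. In AF cKO replicates 1 to 4 it read 11.63, 10.95, 12.85 and 9.60, so the groups overlapped. Its difference was -1.34 (SE 0.65) in the plain fit and -2.58 (SE 0.42, adjusted p = 0.217) with the covariates. Col9a1 and Col9a3, chains of collagen IX on the fibril surface, differed by -1.51 (SE 0.75) and -1.58 (SE 0.38) in the plain fit, and by -3.05 (SE 0.88) and -2.14 (SE 0.62) with the covariates. The matrilin gene Matn3, an adaptor between fibrils and proteoglycans, showed the widest spread of the list, at 15.82, 12.69, 6.03 and 10.26 in CTR and 6.36 to 7.35 in cKO. Its 4 cKO arrays were near background, and so was CTR replicate 3. None of these genes passed.

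Acan, the large aggregating proteoglycan gene whose promoter drives the Cre, read 19.19, 19.31, 18.80 and 19.20 in AF CTR replicates 1 to 4. It read 17.01, 18.23, 16.37 and 16.89 in AF cKO replicates 1 to 4, and the groups did not overlap. The difference was -2.0 (SE 0.34, adjusted p = 0.175) in the plain fit and -2.81 (SE 0.51, adjusted p = 0.406) with the covariates. Hapln1, the link protein that fixes aggrecan to hyaluronan, read 18.18, 17.58, 16.43 and 17.27 in CTR and 15.89, 15.94, 15.93 and 14.92 in cKO. Its groups did not overlap either, with a difference of -1.69 (SE 0.36, adjusted p = 0.348) in the plain fit and -2.48 (SE 0.51, adjusted p = 0.599) with the covariates. Neither gene passed in a fit of the 8 AF arrays.

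Of the receptors and channels of the list, Fgfr3, a brake on chondrocyte growth, read 14.82, 13.68, 12.06 and 13.42 in CTR and 10.85, 10.87, 11.48 and 10.76 in cKO, with no overlap. It differed by -2.50 (SE 0.46, adjusted p = 0.227) in the plain fit and by -3.42 (SE 0.66, adjusted p = 0.555) with the covariates. The cation channel gene Trpv4, a sensor of mechanical and osmotic load, differed by -1.71 (SE 0.38) and -2.24 (SE 0.67). Ucma, a small secreted cartilage protein, differed by -3.48 (SE 0.76) and -3.74 (SE 1.07). Other abundant matrix proteins of the list had smaller plain differences. Chad, a leucine-rich protein that binds cells, was at 18.47 to 19.42 in CTR and 18.89 to 19.30 in cKO, a difference of 0.01 (SE 0.24), and Prelp and Comp differed by 0.07 (SE 0.38) and 0.05 (SE 0.45).

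The Sox9 partners Sox5 and Sox6 had small differences that did not pass. Sox5 differed by -0.48 (SE 0.20) without overlap of the groups, and Sox6 by -0.11 (SE 0.25), with all of its values between 10.83 and 11.70. Sox8, the Sox gene closest in sequence to Sox9 with Sox10, read 7.47 to 9.32 in CTR and 7.24 to 7.42 in cKO (-1.27, SE 0.35). Sox10 was below background on all 8 arrays. Of 13 measured Sox genes 1, Sox9, passed, in both fits.

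**Figure D4:**
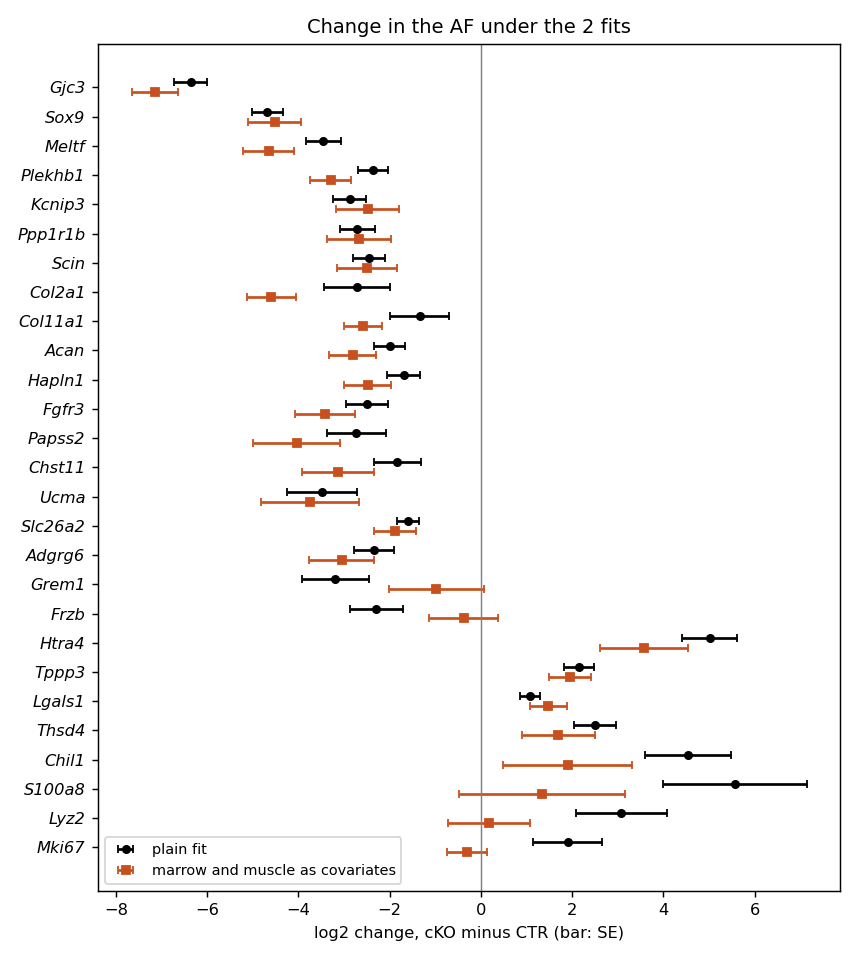
Log2 change (cKO minus CTR) with its SE for 27 genes in the plain fit (black circles) and with marrow and muscle signal as covariates (orange squares). Cartilage genes such as Col2a1 and Col11a1 lie further below 0 with the covariates, while Grem1, Frzb, S100a8 and Lyz2 lie nearer to it.

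The sulfate and glycosaminoglycan genes supply the chains of aggrecan. Of 33 measured, 7 were lower and 1 higher in cKO at an unadjusted p under 0.05 in the plain fit, and 4 were lower with the covariates. None passed, and the list medians were -0.10 and -0.24. Slc26a2, the sulfate transporter, read 11.62, 11.31, 10.79 and 10.78 in AF CTR replicates 1 to 4 and 9.68, 9.52, 9.22 and 9.73 in AF cKO replicates 1 to 4. The groups did not overlap, and the difference of -1.59 (SE 0.24) had an adjusted p of 0.0651. Papss2, which makes the activated sulfate donor, differed by -2.73 (SE 0.64) in the plain fit and -4.04 (SE 0.95) with the covariates. Chst11, a chondroitin sulfotransferase, differed by -1.83 (SE 0.51) and -3.13 (SE 0.79), and Xylt1, which starts the chains, by -0.56 (SE 0.22) and -0.50 (SE 0.42).

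Gjc3, Kcnip3 and Plekhb1 belong to a list of 12 genes best known from glial cells, chosen after earlier results on these arrays had shown several of them lower. Only 5 of the 12 had a mean above the negative controls. In the plain fit 10 of the 12 were lower, 3 passed and the median was -0.82. With the covariates 10 were lower, 1 passed and the median was -1.02. S100b, a calcium-binding protein of glia and chondrocytes, read 9.46, 10.18, 9.76 and 9.88 in CTR and 8.35, 9.27, 8.89 and 8.60 in cKO, a difference of -1.04 (SE 0.25, adjusted p = 0.432) without overlap. The glial lineage genes Sox10, Erbb3 and Gfra3 had group means under the lowest negative control median of 6.14. Mbp, the myelin basic protein of a separate nerve list, read 15.77 in CTR replicate 1, 6.61 to 6.93 in the other CTR arrays and 8.61 to 13.16 in cKO. The part of nerve tissue in the values of CTR replicate 1 was not tested.

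Neutrophil and macrophage genes had medians above CTR in the plain fit and smaller or negative medians with the covariates. The marrow covariate is itself a mean of neutrophil granule genes. A smaller difference for genes that vary with it follows from how it was built. All 21 neutrophil genes were higher in cKO, with a median difference of 2.33 and 14 at an unadjusted p under 0.05, but none passed. The 17 that are not themselves covariates had a plain median of 1.32. With the covariates 12 of these 17 were higher, with a median of 0.42 and 0 at an unadjusted p under 0.05. That median was -0.57 without AF cKO replicate 1 and 1.07 without AF CTR replicate 1, the ends of the range over the fits that leave out 1 array. S100a8, a subunit of calprotectin, read 15.21, 9.74, 5.34 and 9.0 in AF CTR replicates 1 to 4 and 16.39, 15.89, 16.20 and 13.05 in AF cKO replicates 1 to 4. CTR replicate 1 again lay with the cKO arrays, and the difference went from 5.56 (SE 1.58) to 1.34 (SE 1.82). Macrophage genes had a median of 0.50 in the plain fit and -0.29 with the covariates (-0.72 without AF cKO replicate 1, 0.13 without AF CTR replicate 1), and Lyz2, the myeloid lysozyme, went from 3.08 (SE 1.0) to 0.18 (SE 0.90). The chitinase-like protein gene Chil1 differed by 4.54 (SE 0.94, adjusted p = 0.334) and then by 1.90 (SE 1.41).

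Cell cycle genes, too, were highest within each group on the array with the highest marrow signal, with a mean list signal of 7.64 in CTR replicate 1 and 8.71 in cKO replicate 3. In the plain fit 27 of 28 were higher in cKO, with a median of 0.66, 9 at an unadjusted p under 0.05 and none past the adjusted threshold. With the covariates 10 were higher, the median was -0.17 and 0 had an unadjusted p under 0.05, and the median lay between -0.70 (AF CTR replicate 1 left out) and 0.07 (AF cKO replicate 2 left out) over the fits that drop 1 array. Mki67 read 11.23, 9.01, 8.85 and 8.29 in AF CTR replicates 1 to 4 and 10.77, 11.33, 13.38 and 9.5 in AF cKO replicates 1 to 4, highest where the marrow signal was highest. The 12 erythroid genes were all higher in the plain fit (median 0.98, 7 at an unadjusted p under 0.05), and 11 were with the covariates (median 0.57, 1 at an unadjusted p under 0.05). The 30 muscle genes had a plain median of 1.12. The 26 of them outside the covariates had medians of 1.07 and 0.26, where the muscle covariate is itself built from muscle genes.

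**Figure D5:**
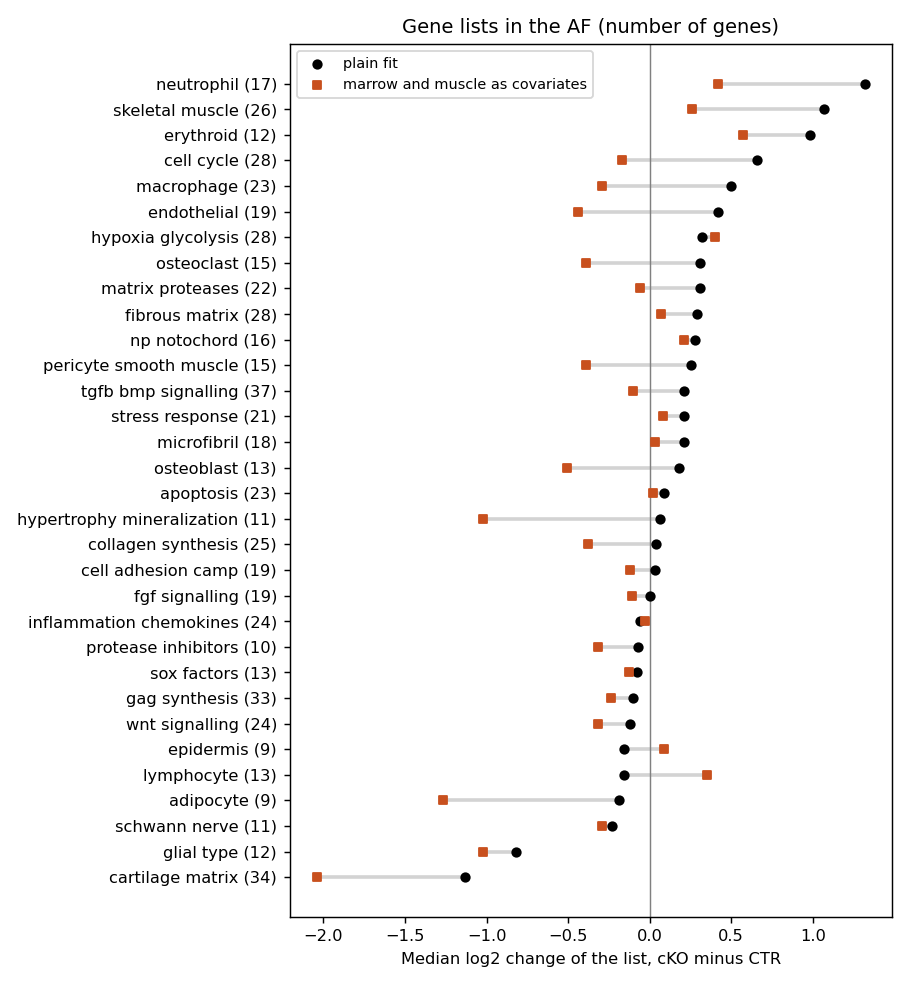
Median log2 change (cKO minus CTR) of each of the 32 gene lists in the plain fit (black circles) and with the covariates (orange squares), over the same genes in both. The cartilage matrix list is lowest in both fits, at -1.13 and -2.04, and the neutrophil, muscle and cell cycle lists move towards or past 0.

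The fibrous matrix list, the collagen I framework and its small proteoglycans, had 23 of 28 genes higher in cKO in the plain fit, with a median of 0.29 and 4 at an unadjusted p under 0.05. With the covariates 16 were higher and the median was 0.07, but its sign and size depended on single arrays, from -1.37 without AF CTR replicate 1 to 0.51 without AF cKO replicate 4. Col1a1 and Col1a2, the chains of collagen I, differed by 0.08 (SE 0.66) and -0.08 (SE 0.50). Col3a1, the collagen III gene of loose connective tissue, read 14.16, 13.18, 13.79 and 9.89 in CTR and 14.87, 15.98, 16.39 and 13.45 in cKO, and its difference of 2.42 (SE 0.86) became -0.33 (SE 1.12). The proteoglycan gene Aspn differed by 1.91 (SE 0.55) without overlap of the groups and by 0.08 (SE 0.80) with the covariates. The tendon factors Scx and Mkx differed by 0.27 (SE 0.25) and 0.40 (SE 0.25) in the plain fit. None of these genes passed in either fit.

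The 22 matrix protease genes had a median of 0.31 in the plain fit and -0.06 with the covariates, and none passed. Adamts5, an aggrecanase, differed by 1.17 (SE 0.36) in the plain fit and -0.07 (SE 0.42) with the covariates. The collagenase gene Mmp13 read 16.30, 12.60, 9.68 and 12.05 in CTR and 15.02, 13.10, 16.58 and 11.11 in cKO, a spread within each group larger than the difference of 1.30 (SE 1.31). The 11 hypertrophy and mineralization genes had a median of 0.06 in the plain fit, with 6 of them higher. With the covariates all 11 were lower, with a median of -1.02, 2 at an unadjusted p under 0.05 and 0 past the adjusted threshold, and without AF CTR replicate 1 the median was 0.26. Col10a1, the collagen of hypertrophic chondrocytes, read 17.40, 14.26, 9.47 and 11.71 in CTR and 12.35, 10.58, 10.34 and 9.79 in cKO. Its difference was -2.45 (SE 1.30) and then -5.01 (SE 1.96).

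Among secreted antagonists, Grem1, which binds BMPs, read 16.48, 19.51, 17.30 and 17.28 in AF CTR replicates 1 to 4 and 14.41, 12.45, 16 and 14.95 in AF cKO replicates 1 to 4. The groups did not overlap, with a plain difference of -3.19 (SE 0.73, adjusted p = 0.417). With the covariates it was -0.98 (SE 1.04), and its slope on the muscle signal was -0.59 (SE 0.21). Frzb, a Wnt antagonist of cartilage, differed by -2.29 (SE 0.58) and then by -0.38 (SE 0.76), and the related Sfrp5 by -2.15 (SE 0.44) and -1.60 (SE 0.80). The BMP target genes Id1, Id2 and Id3 differed by 1.01 (SE 0.41), 1.45 (SE 0.45) and 1.5 (SE 0.44) in the plain fit, and by -0.33, 0.75 and 0.02 with the covariates. Of 37 TGF-beta and BMP genes 7 were higher and 2 lower at an unadjusted p under 0.05 in the plain fit, and 1 was higher with the covariates. Of 24 Wnt genes 1 was higher and 4 were lower, and then 2 were lower.

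The 28 hypoxia and glycolysis genes had a median of 0.32 in the plain fit and 0.40 with the covariates. The plain median was 0.02 with the muscle signal alone as a covariate, 0.05 without the 2 arrays high in muscle, and 0.59 with the marrow signal alone. The covariate median lay between 0.13 (AF CTR replicate 1 left out) and 0.65 (AF cKO replicate 2 left out) over the fits that drop 1 array. In the plain fit 6 were higher and 1 lower at an unadjusted p under 0.05, and with the covariates 4 were higher and 1 lower, none past the adjusted threshold. Pfkfb3, which raises glycolytic flux, differed by 0.97 (SE 0.31) and 1.58 (SE 0.44), and the peptide hormone gene Adm by 1.73 (SE 0.60) and 1.97 (SE 0.82). Egln3, an oxygen-sensing prolyl hydroxylase, read 11.04, 12.58, 12.16 and 13.07 in CTR and 12.89, 12.53, 11.95 and 13.68 in cKO. Its difference was 0.55 (SE 0.44) in the plain fit and 2.01 (SE 0.41, adjusted p = 0.599) with the covariates, and its slope on the marrow signal was negative (-0.42, SE 0.08, adjusted p = 0.0301). The carbonic anhydrase gene Car12 differed the other way, by -2.85 (SE 0.87) and -4.82 (SE 1.33). It read 11.42, 8.84, 5.69 and 8.04 in AF CTR replicates 1 to 4, highest in replicate 1. All cKO arrays (5.58 to 5.78) and CTR replicate 3 were below background.

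Genes with the smallest p among those higher in the plain fit, other than Htra4, did not pass. Tppp3, a microtubule-binding protein of tendon sheath cells, read 9.25, 10.39, 10.21 and 9.71 in CTR and 11.64, 12.77, 11.61 and 12.15 in cKO. It differed by 2.15 (SE 0.32, adjusted p = 0.0601) in the plain fit and by 1.95 (SE 0.46, adjusted p = 0.781) with the covariates. Thsd4, a microfibril-associated protein, differed by 2.51 (SE 0.46, adjusted p = 0.227) and 1.70 (SE 0.80). Nupr1, a stress-induced nuclear protein, differed by 1.42 (SE 0.28) and 0.67 (SE 0.47), and the galectin gene Lgals1 by 1.08 (SE 0.22) and 1.48 (SE 0.40). The groups did not overlap for any of these 4 genes. They were taken for their small p in the same arrays, so this adds no further support. Over all probe sets 398 (1.79%) were higher in cKO without overlap. The remaining genes named by this order were Ly96, Dmtn, Olfml2b, Maf, Chil1 and Cldn1, with adjusted p between 0.31 and 0.334.

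When the NP arrays shared in the estimate of the spread, in a fit of all 16 arrays, 22 probe sets passed in the AF (0.0991%), 3 higher (0.0135%) and 19 lower in cKO (0.0856%). They included 7 of the 8 plain calls, and Htra4 did not pass there (adjusted p = 0.172). Acan (adjusted p = 0.0218), Fgfr3 (0.0151), Ucma (0.0269) and Slc26a2 (0.00728) fell in that fit, as did Adgrg6 (0.0163), an adhesion receptor, Fgfrl1 (0.0244), a decoy receptor of FGF, and Sfrp5 (0.0191). The 3 that rose were Thsd4 (0.0103), Nupr1 (0.0269) and Dmtn (0.0384). The spread in the AF need not be that in the NP. On the NP arrays Thsd4 (3.82 to 4.91), Dmtn (5.34 to 5.91), Ucma (4.76 to 6.52) and Sfrp5 (5.18 to 6.21) read at or below background. In that order, their SE went from 0.46 to 0.39, 0.24 to 0.22, 0.76 to 0.62 and 0.44 to 0.36. Dmtn also lay below background in AF CTR (5.09 to 5.61).

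The change in the AF was also tested against that in the NP of the same animals. In limma 0 of 22206 probe sets passed this difference, and 1496 (6.74%) had an unadjusted p under 0.05. With AF minus NP taken within each animal 0 passed (1599 unadjusted), and with the animal as a random block 0 passed (1623 unadjusted). Sox9 differed by -4.68 in the AF and -6.51 (SE 0.30) in the NP, a difference of 1.83 (SE 0.43, adjusted p = 0.667). Gjc3 differed by -6.36 in the AF and -4.30 (SE 0.43) in the NP. Ppp1r1b, which fell in the AF, read 5.06 to 5.70 on all 8 NP arrays, below the median of the negative controls on those arrays (6.37 to 6.59), so a fall could not have been seen there and the tissues are not compared for it.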

How the data were processed

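RNA of 16 disc samples was hybridised to 1-colour Affymetrix arrays. Per the labels, the authors' deposited values are log2 signals, made by sst-RMA (signal space transformation with RMA) in the Transcriptome Analysis Console (version not given in the sources used here). This table holds 28846 probe sets, and 6640 control probe sets were left out. Of the 22206 tested, 19572 carry 1 gene symbol and 2634 none. limma 3.58.1 in R 4.3.3 (lmFit, eBayes) fitted the 8 AF arrays as 2 group means, and again with the mean signal of 4 marrow genes and of 4 muscle genes as covariates, leaving those 8 genes out of the 22198 counted. Adjusted p is Benjamini-Hochberg over all probe sets. The fits were also run on arrays simulated from the covariate fit itself with independent noise. That checks the code and cannot show whether the model suits these arrays. The members and the 32 gene lists (606 of 656 genes measured) were chosen with earlier results of these data known.

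Named genes are Sox9, the covariate genes, called probe sets, the 10 with the smallest p in a direction with under 5 calls, and the 4 members of each list with the smallest p, at most. Others named here, such as Chad, Prelp, Comp, Sox6, Sox10, Col1a1, Mmp13, Epyc and Mbp, were chosen after their values were seen. A shared code in the titles marks NP and AF of 1 animal, and after subtracting group means these correlated with r of -0.293 to 0.348, with 3 of 8 over 0.1. Replicates are separate animals, and their number limits the precision. Alternatives covered normalization, dim probe sets, the spread, the threshold, single arrays, other covariates and blocks.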

Additional observations from a re-analysis of the deposited data

Results flagged for a closer look

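Values of single arrays that stood apart from the other 3 of their group were sought in 62 groups of 4 with Dixon's ratio of gap to range. Its critical value was passed in 4 groups, and chance alone passes it in about 1 in 20. The marrow signal of AF CTR replicate 1 was 9.29 (ratio 0.937). Fgfr3 read 11.48 in AF cKO replicate 3 (0.857), above the rest of its group, and Hapln1 read 14.92 in AF cKO replicate 4 (0.954), below the rest. S100a8 read 13.05 in AF cKO replicate 4 (0.85), below the other cKO arrays.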

How the results depend on the processing

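Of the 8 plain calls, 5 were left after centring each array on its median, 4 with the muscle signal alone as a covariate, and 3, among 5 calls in all, without AF CTR replicate 1 and AF cKO replicate 3 together, a setting added after seeing the data. There were 22 calls with all 16 arrays and 757 at the thresholds that the labels name, and 2 to 13 without 1 array (2 without AF CTR 4 or AF cKO 1, 3 without AF CTR 2 or AF cKO 3, and 13 without AF CTR 1, of which 9 were higher). Gjc3 and Sox9 kept their plain call in 21 of 21 alternatives and Meltf in 17. Of the 4 covariate calls, 0 were left without AF CTR replicate 1 and AF cKO replicate 3 (705 unadjusted). There were 10 with covariates from the wider marrow and muscle lists, 48 with array weights, whose estimation did not reach its tolerance, and 860 at the labels' thresholds. Leaving out 1 array gave 0 to 12 (0 without AF CTR 1, 12 without AF CTR 3 and 1 without any 1 cKO array), and Gjc3 kept its covariate call in 19 of 21 alternatives. The difference between AF and NP had 0 calls, and 0 to 3 without 1 array. CTR and cKO animals of 1 replicate number were treated as unrelated. Their deviations correlated with r of -0.275 to 0.154, 2 of 4 over 0.1 and 1 best with its own number, and 4 pairs are too few to decide this. The replicate number as a block gave 4 plain calls, and 33 with both covariates, with 0 for AF against NP. The block together with both covariates leaves fewer residual degrees of freedom than the 4 of the covariate fit, so its 33 calls are weakly founded. No alternative reversed a direction called in the same fit. Htra4, called in the plain fit alone, differed by -0.04 (SE 0.66) with the covariates and without AF CTR replicate 1 and AF cKO replicate 3. The cause of these moves was not tested. Genes near the negative control level cannot be told from background.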

Other observations

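Several other lists differed between the plain and the covariate fit, with no call in either. The 9 adipocyte genes had a median difference of -0.19 in the plain fit and -1.27 with the covariates, where all 9 were lower, and the median was 0.30 when 1 array, AF CTR replicate 1, was left out. Endothelial genes had medians of 0.42 and -0.44, with the vessel diaphragm gene Plvap at 0.42 (SE 0.54) and -1.57 (SE 0.52). Osteoclast genes had medians of 0.31 and -0.39, with -0.60 to 0.10 for the latter when 1 array was left out. Acp5, their acid phosphatase, read 15, 11.23, 7.06 and 11.11 in AF CTR replicates 1 to 4, and 10.81, 10.05, 16.73 and 7.37 in AF cKO replicates 1 to 4. The 23 apoptosis genes had medians of 0.09 and 0.02, with the apoptosome gene Apaf1 at 0.72 (SE 0.22) without overlap of the groups, and 0.73 (SE 0.39) with the covariates. The 24 inflammation and chemokine genes had medians of -0.06 and -0.03. Stc2, a secreted glycoprotein of the stress list, differed by -1.70 (SE 0.29) and -1.13 (SE 0.52). In the limma fit of all 16 arrays Stc2 passed as lower in cKO (adjusted p = 0.0472). Nupr1 of the same list passed there as higher (adjusted p = 0.0269).

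Some genes had a larger difference with the covariates than in the plain fit. The keratin gene Krt80 differed by 0.77 (SE 0.41) and 2.08 (SE 0.37, adjusted p = 0.354), and the activin receptor gene Acvr2a by 1.06 (SE 0.34) and 2.06 (SE 0.43). Ppa1, an inorganic pyrophosphatase, differed by -2.76 (SE 0.92) and -5.75 (SE 1.18), and the carboxypeptidase gene Cpm by -1.64 (SE 0.44) and -3.09 (SE 0.51). None of these passed.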
